A study of Homo sapiens with 16 samples.

Results

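Gene expression in 451Lu cells 120 h after dabrafenib withdrawal was compared with that in 451Lu cells kept on the drug. The comparison rests on 4 of the 16 RNA sequencing libraries of the study, 2 for each state, which were taken by their labelled line, treatment and time and not by a measured value. 451Lu is a human melanoma cell line with activated BRAF, and the cells were its resistant derivative, labelled 451Lu BR. The on-drug group was kept on 1 µM dabrafenib, an inhibitor of the BRAF kinase. In the 120 h group DMSO, the solvent, replaced the drug for 120 h. Both groups grew in the same medium with serum. The treatment notes name dabrafenib alone for this line, whereas the source name also calls the cells resistant to trametinib, a MEK inhibitor, for which no 451Lu dose was given. The resistant line is a single derivative, and nothing in the labels tells if replicate libraries were made from different cultures. The p-values therefore cover the spread among these libraries alone, which may be technical. No on-drug cells were sampled at 120 h, so time in culture and withdrawal cannot be told apart. The other 4 libraries of the line, 2 at 24 h and 2 at 72 h off drug, entered the same fit and were used to place the 120 h levels in time.

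The deposited values were raw read counts per gene, with 14097739 and 16447548 counts in the on-drug libraries and 13755264 and 12084012 at 120 h. In what follows a level is in CPM, counts scaled to a common library size with adjustment for composition, and replicate 1 comes before replicate 2. Levels of this kind are relative to the other genes of a library and depend on gene length, so levels are compared within a gene. In libraries of whole cultures, less RNA per cell and fewer cells of a kind cannot be told apart. The melanocyte lineage markers that check the line summed to 10673 and 11264 CPM on drug and 949.6 and 1084 CPM at 120 h. Most of the on-drug sum was PMEL, at 8515 and 9081 CPM. The markers differed by unlike amounts, and S100B had 75.0 and 73.8 CPM on drug and 56.5 and 76.6 CPM at 120 h. PTPRC, which defines leukocytes, had 0 counts in all 8 libraries of the line. Genes of the mitochondrial genome took 6.11% and 5.51% of counts on drug and 4.35% and 5.08% at 120 h, and FN1 alone took 0.0671% and 0.0741% on drug and 6.15% and 6.25% at 120 h.

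BRAF sits at the head of a kinase cascade in which RAF phosphorylates MEK and MEK phosphorylates ERK. Active ERK induces immediate-early and AP-1 transcription factors together with its own inhibitors, the DUSP phosphatases and the Sprouty and SPRED proteins. Mutant BRAF keeps this cascade on in melanoma, and dabrafenib blocks it. Cells of the melanocyte lineage express a pigment programme driven by the transcription factor MITF with SOX10, and melanoma cells can also take states with little pigment gene expression and with more matrix, integrin and cytokine genes.

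The promoters of 5 genes from the pigment, protease, cytokine and matrix lists described below are shown, each as the 250 bases before the RefSeq gene start (GRCh38.p14) on the gene's own strand. They were chosen to show where the binding motifs of the factors just named stand in genes that changed. Capitals mark the motif found on either strand: TCATGTG, the core of the M-box bound by MITF, in TYR and GPR143, TGANTCA, the AP-1 site, in PLAUR and CXCL8, and TGACGTCA, the cyclic AMP response element, in FN1. TYR encodes tyrosinase, the enzyme that starts melanin synthesis, and GPR143 encodes a melanosome receptor. PLAUR is the urokinase receptor, CXCL8 the chemokine interleukin 8 and FN1 fibronectin.
TYR: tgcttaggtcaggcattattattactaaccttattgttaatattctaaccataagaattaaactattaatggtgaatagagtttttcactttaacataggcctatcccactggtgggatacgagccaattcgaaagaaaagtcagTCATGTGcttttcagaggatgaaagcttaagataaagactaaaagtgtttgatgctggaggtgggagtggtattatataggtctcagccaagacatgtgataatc
GPR143: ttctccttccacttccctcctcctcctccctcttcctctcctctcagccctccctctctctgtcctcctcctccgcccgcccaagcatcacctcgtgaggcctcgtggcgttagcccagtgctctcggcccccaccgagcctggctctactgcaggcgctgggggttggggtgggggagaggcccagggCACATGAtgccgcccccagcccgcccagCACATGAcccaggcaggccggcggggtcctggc
PLAUR: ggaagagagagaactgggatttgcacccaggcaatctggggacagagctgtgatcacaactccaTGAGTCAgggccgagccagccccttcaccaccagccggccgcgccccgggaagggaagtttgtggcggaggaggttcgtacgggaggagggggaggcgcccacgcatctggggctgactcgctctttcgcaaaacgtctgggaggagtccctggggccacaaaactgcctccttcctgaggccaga
CXCL8: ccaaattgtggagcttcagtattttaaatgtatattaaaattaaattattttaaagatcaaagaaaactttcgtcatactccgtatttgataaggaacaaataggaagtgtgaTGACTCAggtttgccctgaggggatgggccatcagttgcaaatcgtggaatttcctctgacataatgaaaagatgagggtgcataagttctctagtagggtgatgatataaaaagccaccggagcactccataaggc
FN1: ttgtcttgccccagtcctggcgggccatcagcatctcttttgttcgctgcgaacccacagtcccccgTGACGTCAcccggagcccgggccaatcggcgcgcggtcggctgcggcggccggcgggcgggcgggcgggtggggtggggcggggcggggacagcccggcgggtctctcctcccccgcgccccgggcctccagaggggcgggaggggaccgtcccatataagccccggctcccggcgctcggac
The TYR window lies at chr11:89177625-89177874 (plus strand), GPR143 at chrX:9765848-9766097 (minus strand), PLAUR at chr19:43670170-43670419 (minus strand), CXCL8 at chr4:73740319-73740568 (plus strand) and FN1 at chr2:215436069-215436318 (minus strand). The M-box core began 105 bases before the start of TYR and 61 and 33 bases before that of GPR143. The AP-1 letters stood 186 bases before the start of PLAUR and 137 bases before that of CXCL8, and the response element 183 bases before that of FN1. Across the melanocyte list described below, 6 of 18 promoters with an entry held the M-box core (33.3%), beside 2.52% of all 35116 promoters of this length in the table and 1.41% of the 9575 of genes tested. The AP-1 letters stood in 3 of 9 protease, 2 of 15 cytokine, 1 of 18 melanocyte, 0 of 15 matrix and 0 of 10 integrin promoters, beside 6.57% of all promoters and 3.94% of those of genes tested. The response element was in 1 of 15 matrix gene promoters and in 0 promoters of the other 4 lists, beside 1.65% and 2.96%. The M-box core was in 0 promoters of the protease, cytokine, matrix and integrin lists. No printed promoter held more than 1 of the 3 motifs. BCL2A1, which rose, also carried the M-box core, 26 bases before its start, so the letters stood in promoters of genes that moved either way. These matches are a description and were not tested.

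At 120 h the transcriptome differed widely from that of cells on drug. Of 13851 genes tested, 10224 passed (73.8%; edgeR quasi-likelihood F test, adjusted p under 0.05), 5161 of them higher (37.3%) and 5063 lower (36.6%) at 120 h. At least 2-fold changes were called in 2564 higher (18.5%) and 1991 lower genes (14.4%), and the median log2 fold change over all genes was 0.001. Fitted changes of 10-fold or more numbered 675 genes higher and 345 lower. The common biological coefficient of variation was 4.98%, so that small differences passed the test, and a list's count is best read against these shares. Genes found in 1 state only passed the filter on low counts through the group in which they were high, and such genes had to differ.

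**Figure D1:**
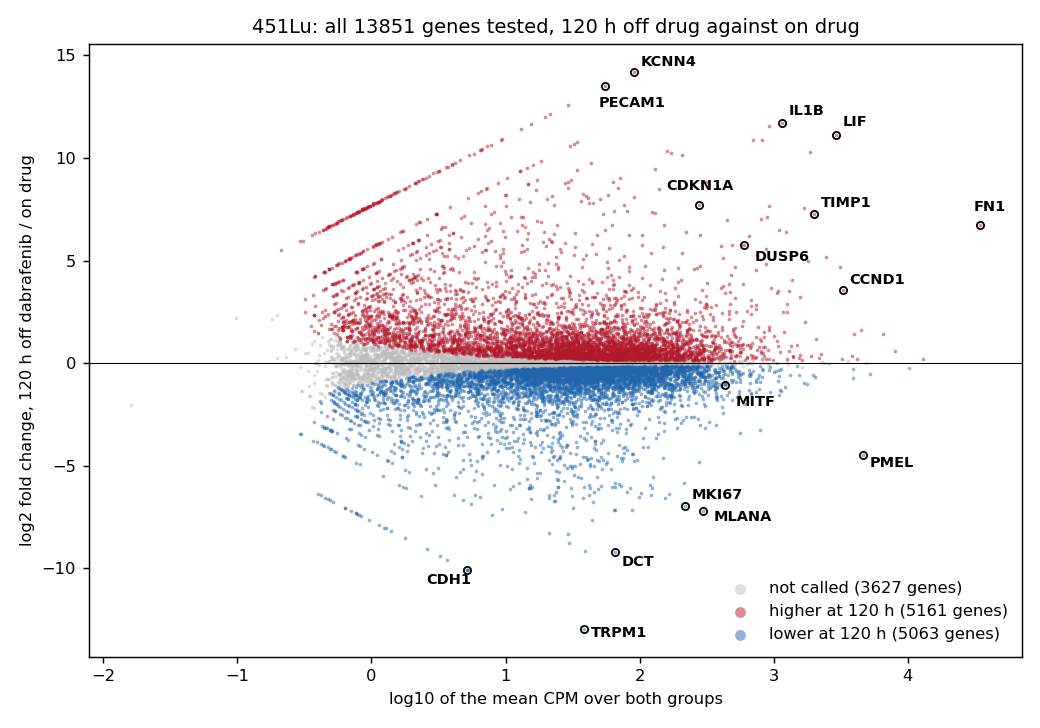
Log2 fold change at 120 h against on drug (vertical axis) by the log10 of the mean CPM over both groups (horizontal axis) for the 13851 genes tested, 1 point each, in red where called higher (5161 genes), blue where called lower (5063 genes) and grey where not called. Slanted rows of points are genes with few or 0 counts in 1 group, whose fitted fold is no bound, and circled genes are named.

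The 12 largest rises among genes at 10 CPM or more at 120 h included those of a channel, an adhesion molecule and secreted factors. KCNN4, a calcium-activated potassium channel gene on chromosome 19, had 0 counts in both on-drug libraries and 179.8 and 183 CPM at 120 h. Against a floor of 3 counts over the 2 libraries it was at least 2032-fold higher. PECAM1, an adhesion molecule of endothelial cells and platelets, went from 0 counts to 111 and 111 CPM (at least 1239-fold higher). The growth factor gene PDGFB went from 0 counts to 57.9 and 58.7 CPM (at least 652-fold higher). In each of these 3 genes both 120 h values lay far above both on-drug values, which their choice as the largest rises fixed. The death ligand gene TNFSF10 (at least 480.1-fold higher, 46.7 and 39.1 CPM at 120 h) and the monocyte chemokine genes CCL2 (at least 442-fold, 47.3 and 31.7 CPM) and CCL7 (at least 348-fold, 37.98 and 24.2 CPM) were also at 0 counts on drug. So were EDARADD, an adaptor of ectodysplasin signalling (at least 289.9-fold, 26.9 and 24.9 CPM), and the phosphate hormone gene FGF23 (at least 208-fold, 12.6 and 24.5 CPM). TFPI2, a serine protease inhibitor, had 0.775 and 0.442 CPM on drug and 2449 and 1234 CPM at 120 h (log2 fold change 11.57 ± 0.53, adjusted p = 6.12e-12). Its replicates at 120 h stood further apart than those of KCNN4 or PECAM1, yet both lay above every on-drug value, and without 120 h replicate 1 the log2 fold change was 10.95.

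Melanocyte and epithelial genes were among the 12 largest falls of genes at 10 CPM or more on drug. TRPM1, a melanocyte cation channel gene, had 75.6 and 77.6 CPM on drug and 0 counts in both libraries at 120 h, at least 598-fold lower. CDH1, which encodes the epithelial adhesion protein E-cadherin, went from 9.303 and 11.2 CPM to 0 counts (at least 80.1-fold lower). DCT, an enzyme of melanin synthesis, had 123 and 137 CPM on drug and 0.161 and 0.274 CPM at 120 h (log2 fold change -9.19 ± 0.24, adjusted p = 5.99e-15). MLANA, a melanosome protein gene, had 595 and 588 CPM on drug and 3.37 and 4.84 CPM at 120 h (log2 fold change -7.18 ± 0.13). ESRP1, an epithelial splicing regulator, fell from 62.6 and 56.98 to 0.161 and 0.0912 CPM, with 3 counts left at 120 h and a ratio of 465 (95% counting interval 159 to 2256). PRDM7, which encodes a histone methyltransferase, fell from 73.5 and 83.8 to 0.0803 and 0.182 CPM, a ratio of 617 (95% counting interval 211 to 2994), and its fitted log2 fold change was -9.82 without 120 h replicate 2. In each of these genes both on-drug libraries were high and both 120 h libraries at or near 0, which their choice as the largest falls fixed. The antisense gene PLCH1-AS1 (9.69 and 10.9 CPM on drug and 0 and 0 CPM at 120 h) and the non-coding gene LINC01531 (14.02 and 17.7 CPM on drug and 0.0803 and 0.0912 CPM at 120 h) were among the 12 largest falls, beside DENND2D, CFAP61, BAAT and the mitotic kinesin gene KIF20A. Since the strand setting of the counting is not given, reads of an antisense gene and its partner cannot be told apart.

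Genes that report ERK activity were higher at 120 h. Of the 24 listed genes of ERK output and feedback, 24 were tested, of which 19 rose and 3 fell, with a median log2 fold change of 2.44. DUSP6, the phosphatase that removes the activating phosphates from ERK, had 23.0 and 20.2 CPM on drug, 538 and 444 at 24 h, 1157 and 1087 at 72 h and 1221 and 1146 at 120 h (log2 fold change 5.78 ± 0.10 at 120 h against on drug, adjusted p = 7.43e-17). All 6 off-drug values lay above both on-drug values. SPRY4, a Sprouty inhibitor of the pathway, had 23.1 and 23.3 CPM on drug and 268 and 257 CPM at 120 h (log2 fold change 3.500 ± 0.07). IER3, an immediate-early survival gene, had 22.5 and 25.8 CPM on drug and 2354 and 1941 CPM at 120 h (log2 fold change 6.47 ± 0.10), and PHLDA1 had 139.6 and 138 CPM on drug and 1742 and 1819.9 CPM at 120 h (log2 fold change 3.68 ± 0.06). CCND1, the cyclin D1 gene, had 505 and 514 CPM on drug and 6083 and 5984 CPM at 120 h (log2 fold change 3.57 ± 0.06). The 3 list members that fell were MYC (165 and 175 CPM on drug and 70.3 and 63.6 CPM at 120 h), ETV5 (231 and 249 CPM on drug and 132 and 155 CPM at 120 h) and EPHA2 (4.91 and 4.42 CPM on drug and 0 and 0.0912 CPM at 120 h, a ratio of 109 (95% counting interval 19.2 to 4324)). The fitted log2 fold change of EPHA2 was -5.58 without 120 h replicate 1 and -8.96 without 120 h replicate 2. ETV4 and EPHA4 did not pass, with log2 fold changes of 0.09 and 0.02.

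Among AP-1 genes, 11 were tested, of which 9 rose and 1 fell (median 0.74). FOSB had 3.04 and 2.93 CPM on drug and 61.8 and 52.4 CPM at 120 h (log2 fold change 4.26 ± 0.15) and JUNB 33.1 and 38.6 CPM on drug and 212 and 162 CPM at 120 h (log2 fold change 2.38 ± 0.12). FOSL1, which encodes the AP-1 subunit FRA1, had 32.4 and 32.5 CPM on drug, 241 and 209.8 at 24 h, 76.1 and 80.7 at 72 h and 61.5 and 69.7 at 120 h. Its 24 h values were the highest of the 8 libraries, and at 120 h both values were above those on drug (log2 fold change 1.01 ± 0.09) and below those at 24 h (log2 fold change -1.79, adjusted p = 9.30e-12). BATF, the member that fell, had 7.24 and 6.85 CPM on drug and 1.37 and 1.004 CPM at 120 h. Of immediate-early genes, 16 were tested, of which 10 rose and 2 fell (median 2.06). The share of this list called, 75%, was near the 73.8% of all genes tested. EGR3 had 1.098 and 1.27 CPM on drug and 108 and 109.8 CPM at 120 h (log2 fold change 6.51 ± 0.13), NR4A2 6.01 and 7.96 CPM on drug and 159 and 160.1 CPM at 120 h (log2 fold change 4.501 ± 0.10), EGR1 76.3 and 82.9 CPM on drug and 464 and 411 CPM at 120 h (log2 fold change 2.46 ± 0.08) and HBEGF, a ligand of the EGF receptor, 8.21 and 8.68 CPM on drug and 130.3 and 106 CPM at 120 h (log2 fold change 3.81 ± 0.11). BTG2 and NR4A3 fell, with log2 fold changes of -1.26 and -1.65, and BTG2 did not pass without on-drug replicate 1 (-1.11, adjusted p = 0.0591). The number of falls in this list was 1 without that library and 4 without 72 h replicate 2. Of the genes for the kinases of the cascade and their regulators, 14 were tested, of which 7 rose and 6 fell (median 0.11), with log2 fold changes from -0.46 to 1.74. The counts in each direction were alike, and the largest rises were larger than the largest falls. BRAF, the drug's target, had 68.5 and 69.2 CPM on drug and 141 and 156 CPM at 120 h (log2 fold change 1.10 ± 0.06), and MAP2K1, which encodes MEK1, 68.2 and 72.4 CPM on drug and 216 and 205 CPM at 120 h (log2 fold change 1.58 ± 0.06). The ERK1 gene MAPK3 fell and had 56.7 and 55.6 CPM on drug and 37.3 and 44.6 CPM at 120 h (log2 fold change -0.46 ± 0.09). That fall was small and did not pass when tested against a 1.5-fold change, which 22.1% of all genes tested passed as higher and 18.9% as lower.

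**Figure D2:**
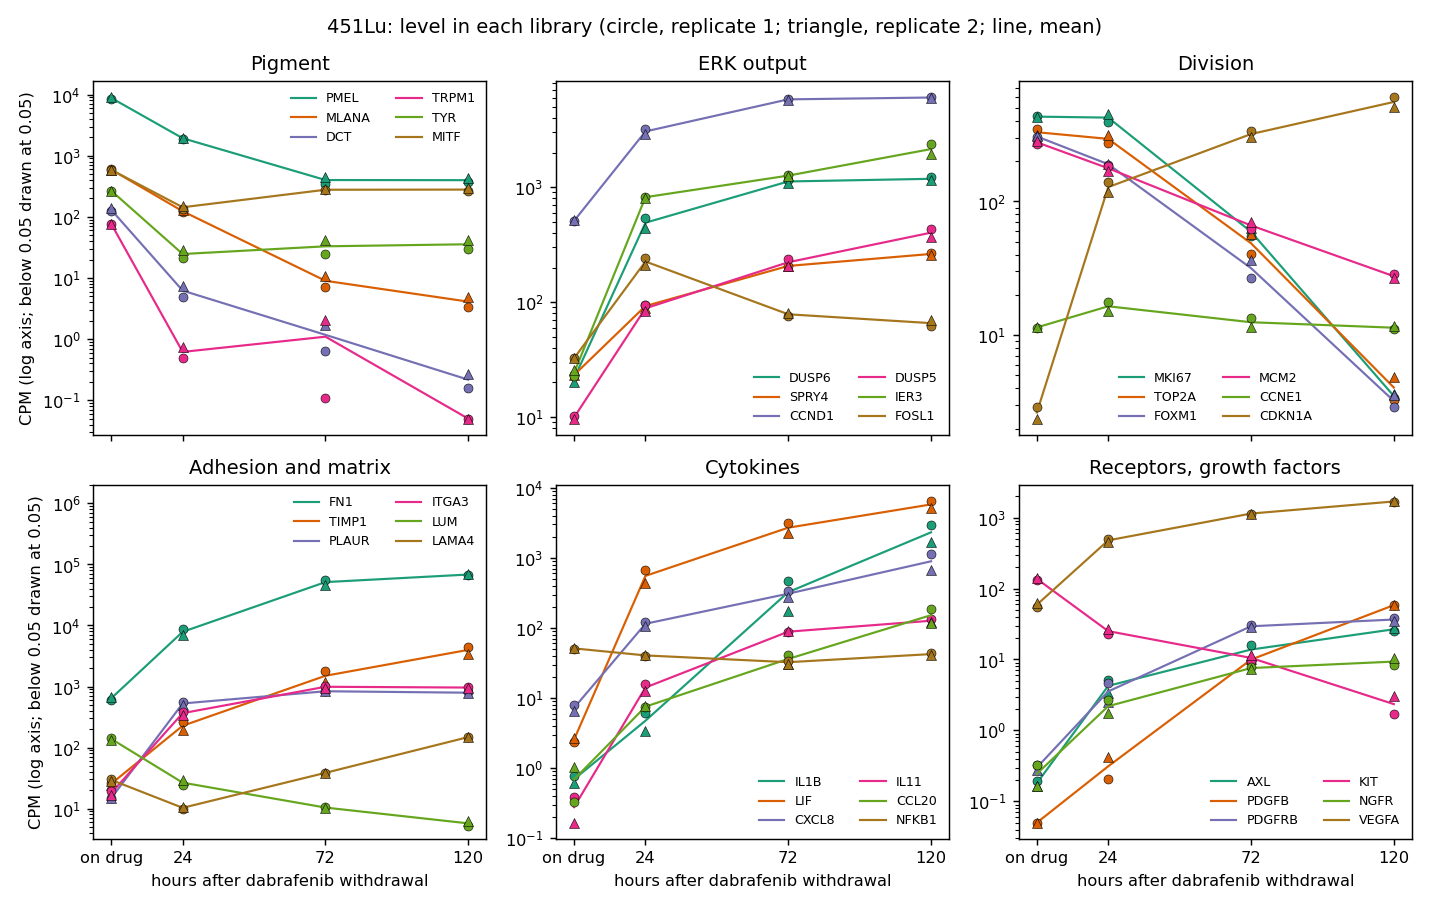
CPM on a log axis in each of the 8 451Lu libraries by hours after withdrawal (circles for replicate 1, triangles for replicate 2, lines through the means of 2) for 6 groups of genes. DUSP6 and CCND1 are near their 72 h level at 120 h, FOSL1 is highest at 24 h, MKI67 is near its on-drug level at 24 h and far below it at 120 h, and IL1B is higher at 120 h than at 72 h.

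Genes of the pigment programme were lower at 120 h. Of the 23 listed genes, 23 were tested, of which 2 rose and 21 fell, with a median log2 fold change of -2.92. PMEL, which forms the fibrils of the melanosome, had 8515 and 9081 CPM on drug, 1905 and 1956 at 24 h, 344 and 456 at 72 h and 372 and 424 at 120 h (log2 fold change -4.47 ± 0.11 at 120 h, adjusted p = 2.52e-15). The 4 on-drug and 120 h values of PMEL did not overlap, which its place among the 4 smallest adjusted p of the list largely fixed. The difference between 120 h and 72 h did not pass (log2 fold change -0.01, adjusted p = 0.954). TYR had 267 and 268 CPM on drug and 29.7 and 41.5 CPM at 120 h (log2 fold change -2.92 ± 0.16) and GPR143 141 and 142 CPM on drug and 7.31 and 8.94 CPM at 120 h (log2 fold change -4.13 ± 0.10), the genes whose M-box letters are shown above. SLC45A2, a melanosome transporter gene, had 251 and 243 CPM on drug and 4.66 and 6.11 CPM at 120 h (log2 fold change -5.53 ± 0.10). TYRP1 and CAPN3 had 0 counts at 120 h after 1.49 and 1.66 CPM and 4.52 and 5.86 CPM on drug, at least 12.3-fold and 40.5-fold lower. MITF itself had 590.5 and 583 CPM on drug, 137 and 149.9 at 24 h, 274 and 281 at 72 h and 266 and 292 at 120 h. It fell less than the pigment genes named above (log2 fold change -1.07 ± 0.06), and its lowest values were at 24 h, below both at 120 h (log2 fold change of 120 h against 24 h 0.96, adjusted p = 1.46e-09). SOX10 was also lowest at 24 h, with 506 and 531 CPM on drug, 125 and 123 at 24 h, 188 and 203 at 72 h and 222 and 244 at 120 h (log2 fold change -1.16 ± 0.06 at 120 h). The 2 members that rose were BCL2A1, which protects cells from apoptosis (43.6 and 42.4 CPM on drug and 334 and 301 CPM at 120 h, log2 fold change 2.89 ± 0.07), and MC1R, the melanocortin receptor gene (23.6 and 25.6 CPM on drug and 42.2 and 48.8 CPM at 120 h, log2 fold change 0.88 ± 0.10).

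Of 14 tested genes of the neural crest and of undifferentiated melanoma cells, 7 rose and 7 fell. KIT, a receptor of the melanocyte lineage, had 134 and 140.1 CPM on drug and 1.69 and 3.01 CPM at 120 h (log2 fold change -5.88 ± 0.14), and SNAI2 221 and 228 CPM on drug and 82.2 and 83.1 CPM at 120 h (log2 fold change -1.44 ± 0.06). NGFR, the nerve growth factor receptor gene, went from 0.323 and 0.166 to 8.27 and 10.4 CPM (log2 fold change 5.23 ± 0.33), and ZEB2 from 163 and 156 to 310.0 and 322 CPM (log2 fold change 0.99 ± 0.06). SOX9 had 1 count on drug and 6.103 and 2.92 CPM at 120 h, a ratio of 155 (95% counting interval 27.2 to 6173). Its fitted log2 fold change was 6.13 without on-drug replicate 1, 8.80 without on-drug replicate 2 and 6.17 without 120 h replicate 1. Several of these rises started from almost no counts and ended at low levels, whereas KIT, SOX10 and SNAI2 started high.

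Genes of DNA replication and cell division fell. Of 30 tested genes of DNA replication and the E2F programme, 0 rose and 29 fell (median -2.65). All 27 tested genes of G2 and mitosis fell (median -5.93), as did all 17 of homologous recombination and the Fanconi pathway (median -3.93). MKI67, the proliferation marker Ki-67, had 435 and 427 CPM on drug, 396 and 451 at 24 h, 55.3 and 63.4 at 72 h and 3.37 and 3.65 at 120 h (log2 fold change -6.94 ± 0.11 at 120 h, adjusted p = 3.47e-17). The 24 h values lay on both sides of those on drug, the 72 h values lay below and the 120 h values were the lowest. FOXM1, the transcription factor of mitotic genes, had 303 and 309 CPM on drug and 2.89 and 3.56 CPM at 120 h (log2 fold change -6.57 ± 0.13), and BIRC5, which encodes survivin, 197 and 192 CPM on drug and 1.69 and 2.55 CPM at 120 h (log2 fold change -6.53 ± 0.11). TPX2, a spindle assembly factor, had 533 and 541 CPM on drug and 18.8 and 19.2 CPM at 120 h (log2 fold change -4.82 ± 0.09). The replicative helicase genes MCM2 (269 and 285 CPM on drug and 28.6 and 26.6 CPM at 120 h, log2 fold change -3.32 ± 0.08), MCM4 (log2 fold change -3.01 ± 0.06) and MCM5 (log2 fold change -2.65 ± 0.06) fell less far, and thymidine kinase TK1 further (171 and 170.4 CPM on drug and 8.83 and 6.93 CPM at 120 h, log2 fold change -4.43 ± 0.09). Among repair genes, FANCI had 223 and 211 CPM on drug and 12.8 and 13.1 CPM at 120 h (log2 fold change -4.06 ± 0.10) and the recombination factor RAD54L 44.6 and 48.7 CPM on drug and 2.01 and 1.55 CPM at 120 h (log2 fold change -4.70 ± 0.14), beside XRCC2 (log2 fold change -4.40 ± 0.13) and the exonuclease gene EXO1 (log2 fold change -5.10 ± 0.16). CCNE1, the cyclin E1 gene, was the member of the replication list that did not pass, with 11.4 and 11.5 CPM on drug and 11.1 and 11.7 CPM at 120 h (log2 fold change -0.01, adjusted p = 0.955).

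Against 72 h, 4531 of all genes tested were called at 120 h (32.7%), 2297 higher (16.6%) and 2234 lower (16.1%). This contrast uses no on-drug library. Of the 3 lists, 0 rose and 29 fell for replication, 0 rose and 26 fell for mitosis and 0 rose and 16 fell for repair, with medians of -1.28, -3.11 and -1.85. Of genes called between 72 h and 120 h with at least 10 CPM at 72 h, the 8 with the largest falls were all division genes. They were NCAPG (log2 fold change -4.43), ASPM (-4.18), KIF2C (-4.10), MKI67 (-4.08), NUF2 (-4.01), ANLN (-3.92), CDK1 (-3.90) and PRC1 (-3.85), which act in chromosome condensation, the spindle, the kinetochore and cytokinesis. Without 120 h replicate 2 the values of ASPM and NUF2 were -4.81 and -4.86. At 24 h, 17 of 30 replication, 6 of 27 mitosis and 5 of 17 repair genes were called lower than on drug and 4, 7 and 1 higher. Over all genes tested, 24.9% were called lower and 29.2% higher at 24 h. At 72 h, 29, 27 and 17 were lower than on drug and 0 higher. The share of all genes called at 72 h is not given here. The median log2 fold change over all genes was 0.0301 at 24 h and -0.0023 at 72 h. At 24 h the 3 lists had medians of -0.28, -0.05 and -0.12 against on drug, and at 72 h -1.66, -2.44 and -1.71. These values share the on-drug libraries with the 120 h values and are set beside them as a description.

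**Figure D3:**
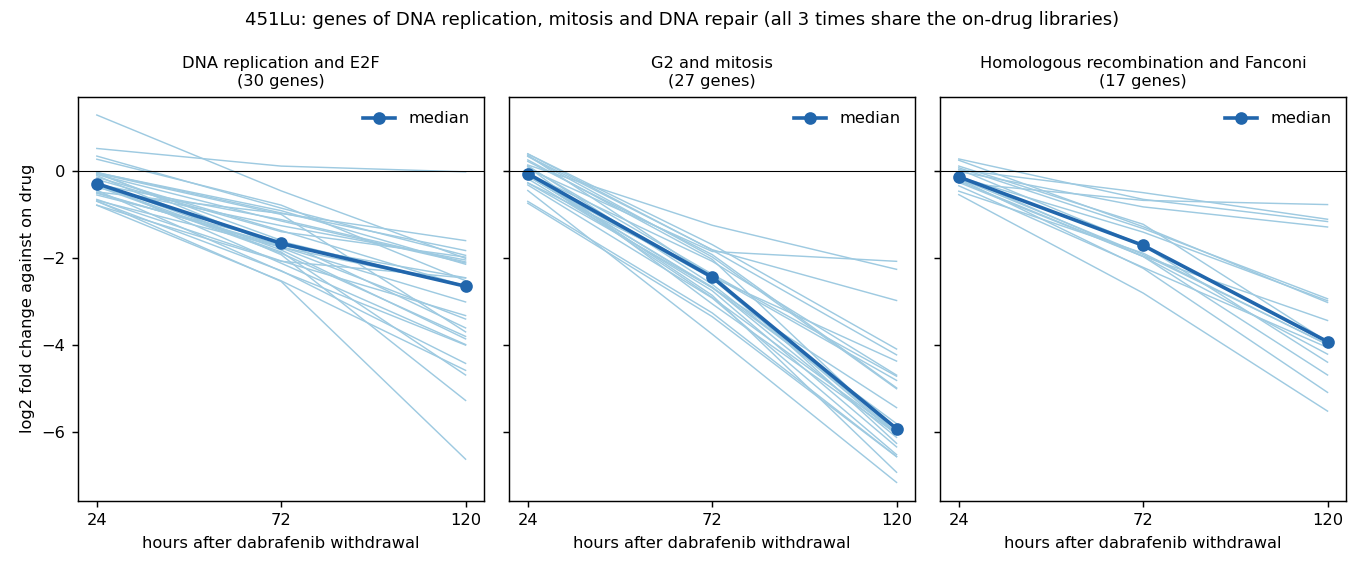
Log2 fold change against on drug (vertical axis) at 24, 72 and 120 h (horizontal axis) for the tested genes of DNA replication (30), G2 and mitosis (27) and homologous recombination (17), 1 thin line per gene and the list median as a thick line. The medians lie near 0 at 24 h and at -2.65, -5.93 and -3.93 at 120 h, and all 3 times share the same on-drug libraries.

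Among genes that govern entry into S phase, 15 were tested, of which 10 rose and 5 fell (median 0.58). CDKN1A, which encodes the CDK inhibitor p21, had 2.91 and 2.38 CPM on drug, 139 and 117 at 24 h, 334 and 304 at 72 h and 603 and 506 at 120 h (log2 fold change 7.72 ± 0.14 at 120 h, adjusted p = 1.09e-16). Each time had higher values than the one before, and no 2 groups overlapped. CDKN2B, which encodes the inhibitor p15, had 4.199 and 4.09 CPM on drug and 132 and 141 CPM at 120 h (log2 fold change 5.04 ± 0.11). CDK2, whose gene lies next to PMEL so that some reads of the 2 genes may not be told apart, had 468 and 487 CPM on drug and 66.7 and 76.2 CPM at 120 h (log2 fold change -2.74 ± 0.10). In the BCL2 family, 14 were tested, of which 8 rose and 5 fell (median 0.34). The survival gene MCL1 had 145 and 145 CPM on drug and 1196 and 1236 CPM at 120 h (log2 fold change 3.07 ± 0.06), and of the genes that promote death PMAIP1 had 29.8 and 29.2 CPM on drug and 87.7 and 78.6 CPM at 120 h (log2 fold change 1.496 ± 0.08) and BOK 22.5 and 20.4 CPM on drug and 57.5 and 53.4 CPM at 120 h (log2 fold change 1.37 ± 0.09). BCL2 fell (log2 fold change -2.03).

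Genes of the extracellular matrix and of the receptors that bind it were higher. Of 33 listed matrix genes, 22 were tested, of which 18 rose and 1 fell (median 3.55). At 10 CPM or more stood 10 on drug and 13 at 120 h. Members near 0 on drug had no room to fall, so the filter partly fixed this count. FN1 had 611 and 673 CPM on drug, 8761 and 6981 at 24 h, 56486 and 46279 at 72 h and 67896 and 68855 at 120 h (log2 fold change 6.73 ± 0.12 at 120 h, adjusted p = 9.61e-17). Its 120 h values were the highest of the 8 libraries and exceeded both values at 72 h (log2 fold change 0.41, adjusted p = 0.00312), a call that was lost without 72 h replicate 2 (0.26, adjusted p = 0.0631). With FN1 and the mitochondrial genes left out of the library sizes, a setting added after the data were seen, 120 h against on drug gave 10216 calls in place of 10224. TNC, the tenascin C gene, had 39.99 and 37.4 CPM on drug and 1520.4 and 1425 CPM at 120 h (log2 fold change 5.25 ± 0.08). The collagen cross-linking enzyme gene LOXL2 had 1.55 and 1.44 CPM on drug and 259 and 232 CPM at 120 h (log2 fold change 7.35 ± 0.12) and COL6A1 71.5 and 79.2 CPM on drug and 1151 and 1061 CPM at 120 h (log2 fold change 3.87 ± 0.08). TGFBI had 1 count on drug and 2.17 and 0.912 CPM at 120 h, a ratio of 53.1 (95% counting interval 8.95 to 2152). Its fitted log2 fold change was 4.59 without on-drug replicate 1, 7.26 without on-drug replicate 2 and 4.51 without 120 h replicate 1. LUM, which encodes the proteoglycan lumican, was the member that fell (145 and 132 CPM on drug and 5.14 and 6.295 CPM at 120 h, log2 fold change -4.60 ± 0.11).

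Of 14 tested integrin genes, 13 rose and 1 fell (median 4.18). At 10 CPM or more stood 8 on drug and 13 at 120 h, and members low on drug had little room to fall. ITGA3 had 19.4 and 16.6 CPM on drug and 967 and 956 CPM at 120 h (log2 fold change 5.74 ± 0.09), ITGA5, the fibronectin receptor subunit, 35.1 and 35.8 CPM on drug and 1825 and 1576 CPM at 120 h (log2 fold change 5.58 ± 0.11), ITGA2 6.14 and 4.42 CPM on drug and 457 and 416 CPM at 120 h (log2 fold change 6.38 ± 0.12) and ITGB3 21.7 and 19.7 CPM on drug and 551 and 533 CPM at 120 h (log2 fold change 4.71 ± 0.08). In each of them the on-drug and 120 h values were far apart, and they were chosen for the smallest adjusted p of the list. ITGAV was the member that fell (log2 fold change -0.25). Of 18 tested proteases and inhibitors, 14 rose and 4 fell (median 4.01). Here 11 stood at 10 CPM or more on drug and 17 at 120 h, with the same limit for members low on drug. PLAUR had 15.1 and 14.8 CPM on drug and 801 and 781 CPM at 120 h (log2 fold change 5.73 ± 0.08), ADAMTS1 59.8 and 63.8 CPM on drug and 1419 and 1428 CPM at 120 h (log2 fold change 4.52 ± 0.07) and SERPINE2 174 and 174 CPM on drug and 1984 and 1954 CPM at 120 h (log2 fold change 3.500 ± 0.07). The members that fell were PLAT, MMP2, TIMP2 and MMP15. Of genes of epithelial and mesenchymal state, 8 rose and 4 fell of 13 tested (median 0.99). VIM, the vimentin gene, had 2129 and 2224 CPM on drug and 5699 and 5923 CPM at 120 h (log2 fold change 1.42 ± 0.06), and the catenin gene CTNNA1 13.1 and 13.4 CPM on drug and 73.2 and 75.4 CPM at 120 h (log2 fold change 2.48 ± 0.09). ZEB1, a repressor of CDH1, had 1.81 and 0.884 CPM on drug and 14.1 and 11.2 CPM at 120 h (log2 fold change 3.26 ± 0.24), and CDH2, the N-cadherin gene, 0.258 and 0.111 CPM on drug and 5.14 and 3.74 CPM at 120 h (log2 fold change 4.57 ± 0.41, or 5.21 without on-drug replicate 1).

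All 16 tested growth factor ligands of 20 listed rose (median 5.35, or 4.89 with the 4 genes at 0 counts on drug set at their bound). Of these, 2 stood at 10 CPM or more on drug and 10 at 120 h. Members near 0 on drug passed the filter through off-drug libraries and had no room to fall, so the filter partly fixed this count. VEGFA, the main angiogenic factor, had 55.3 and 62.8 CPM on drug and 1669 and 1705 CPM at 120 h (log2 fold change 4.83 ± 0.07), and VEGFC, the lymphatic one, 6.91 and 5.08 CPM on drug and 109 and 106 CPM at 120 h (log2 fold change 4.18 ± 0.12). IGF2 had 0.129 and 0.166 CPM on drug and 44.97 and 43.98 CPM at 120 h (log2 fold change 8.13 ± 0.21). FGF2 had 3 counts on drug and 30.997 and 19.2 CPM at 120 h, a ratio of 285 (95% counting interval 97.01 to 1385). Of 18 tested receptor tyrosine kinases, 11 rose and 6 fell (median 1.05). AXL had 0.194 and 0.166 CPM on drug and 25.5 and 27.8 CPM at 120 h (log2 fold change 7.14 ± 0.30), PDGFRB, a receptor for the product of PDGFB, 0.323 and 0.276 CPM on drug and 38.3 and 34.9 CPM at 120 h (log2 fold change 6.90 ± 0.24), FGFR1 26.7 and 26.2 CPM on drug and 343 and 336 CPM at 120 h (log2 fold change 3.68 ± 0.08) and DDR1, a collagen receptor, 8.66 and 7.35 CPM on drug and 58.1 and 59.5 CPM at 120 h (log2 fold change 2.88 ± 0.10). The ligand and receptor genes of the PDGF pair were thus both at or near 0 on drug and well detected in both libraries at 120 h. In TGF-beta signalling, 11 rose and 7 fell of 19 tested (median 1.99). SMAD3 had 19.1 and 20.4 CPM on drug and 129 and 119.7 CPM at 120 h (log2 fold change 2.65 ± 0.09), TGFBR2 24.6 and 23.8 CPM on drug and 92.03 and 101 CPM at 120 h (log2 fold change 1.99 ± 0.08) and the SMAD repressor SKIL 14.4 and 13.04 CPM on drug and 86.2 and 76.7 CPM at 120 h (log2 fold change 2.57 ± 0.10). ID3, a target of BMP signals, fell (46.9 and 40.7 CPM on drug and 2.25 and 1.46 CPM at 120 h, log2 fold change -4.53 ± 0.16). Of YAP and TEAD targets and regulators, 10 rose and 2 fell of 15 tested (median 0.65). The share of this list called, 80%, was near the 73.8% of all genes tested. WWTR1, which encodes TAZ, had 77.8 and 73.8 CPM on drug and 523 and 585 CPM at 120 h (log2 fold change 2.87 ± 0.07), AMOTL1 48.1 and 48.5 CPM on drug and 277 and 297 CPM at 120 h (log2 fold change 2.57 ± 0.06) and YAP1 107 and 109 CPM on drug and 219 and 235 CPM at 120 h (log2 fold change 1.07 ± 0.06). Of WNT genes, 10 rose and 4 fell of 16 tested (median 1.23), among them the receptor gene FZD1 (33.5 and 34.3 CPM on drug and 148 and 155 CPM at 120 h, log2 fold change 2.16 ± 0.07), the nuclear factors LEF1 (log2 fold change 1.66 ± 0.08) and TCF7 (log2 fold change 3.17 ± 0.17) and the secreted antagonist SFRP1 (log2 fold change 2.93 ± 0.15).

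Inflammatory genes rose the furthest of the 36 lists shown by median, which is 7.11, or 6.73 with the 2 genes at 0 counts on drug set at their bound. Of 24 listed, 20 were tested, of which 19 rose and 1 fell. At 10 CPM or more stood 5 on drug and 17 at 120 h, and members near 0 on drug had no room to fall. IL1B, the interleukin 1 beta gene, had 0.775 and 0.608 CPM on drug, 6.07 and 3.41 at 24 h, 475 and 174 at 72 h and 2936 and 1703 at 120 h (log2 fold change 11.71 ± 0.57 at 120 h against on drug, adjusted p = 1.47e-11). It also rose between 72 h and 120 h (log2 fold change 2.84, adjusted p = 4.48e-06), and no 2 groups overlapped. LIF, a cytokine of the interleukin 6 family, had 2.39 and 2.71 CPM on drug, 671 and 438 at 24 h, 3134 and 2267 at 72 h and 6463 and 5139 at 120 h (log2 fold change 11.14 ± 0.27). CXCL8 had 7.95 and 6.52 CPM on drug and 1126 and 664 CPM at 120 h (log2 fold change 6.96 ± 0.23) and IL11 0.388 and 0.166 CPM on drug and 133 and 121 CPM at 120 h (log2 fold change 8.84 ± 0.18, or 9.49 without on-drug replicate 1). IL6, at 0 counts on drug, reached 2.41 and 1.82 CPM, a rise of at least 23.7-fold. NFKB2, a subunit of NF-kB and its own target, had 28.3 and 29.3 CPM on drug and 149 and 136 CPM at 120 h (log2 fold change 2.30 ± 0.07), whereas NFKB1 was the member that fell (50.7 and 51.4 CPM on drug and 43.9 and 40.8 CPM at 120 h, log2 fold change -0.27).

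The 2 libraries at 120 h differed in these genes. Of 17 list members at 10 CPM or more, 17 were higher in replicate 1, with a median ratio of replicate 1 to replicate 2 of 1.45, and 6 of the 17 differed by over 1.5-fold. Over all 8921 genes at that level, 4452 were higher in replicate 1, with a median ratio of 1.00, and 68 differed by over 1.5-fold. The 13 genes of the mitochondrial genome stood the other way, 0 of 13 higher in replicate 1, with a median ratio of 0.847. On drug and at 72 h, 13 of 13 of them were higher in replicate 1, with median ratios of 1.15 and 1.13, and at 24 h 8 of 13 were (median ratio 1.03). For the cytokine list, 11 of 14 members at 10 CPM or more were higher in replicate 1 at 72 h and 8 of 9 at 24 h, and 1 of 5 on drug. Over all genes at that level, 4639 of 9002 were at 72 h, 4472 of 8935 at 24 h and 4375 of 8960 on drug. The part of this difference between libraries in the cytokine results was not tested, and in each of IL1B, LIF and CXCL8 both 120 h values lay above both values at every other time.

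**Figure D4:**
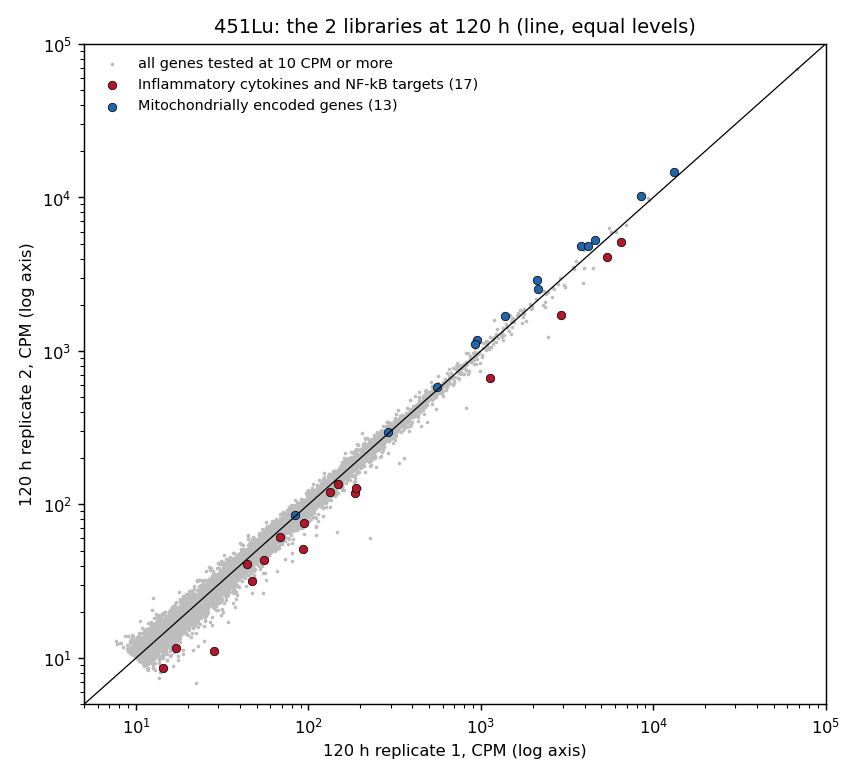
CPM in 120 h replicate 2 (vertical, log axis) against replicate 1 (horizontal, log axis) for genes tested at a mean of 10 CPM or more (grey), with 17 inflammatory genes in red and the 13 genes of the mitochondrial genome in blue. All 17 inflammatory genes lie below the line of equal levels, and all 13 mitochondrial genes above it.

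Of 20 tested interferon-response genes, 14 rose and 4 fell (median 0.40). IRF1 had 3.94 and 4.14 CPM on drug and 32.04 and 29.7 CPM at 120 h (log2 fold change 2.93 ± 0.14), ISG20 3.88 and 2.82 CPM on drug and 12.04 and 14.1 CPM at 120 h (log2 fold change 1.97 ± 0.17), the RNA sensor gene DDX58 6.78 and 5.58 CPM on drug and 16.5 and 19.1 CPM at 120 h (log2 fold change 1.53 ± 0.13) and IRF7 5.49 and 6.41 CPM on drug and 16.9 and 18.3 CPM at 120 h (log2 fold change 1.55 ± 0.13). In antigen presentation by MHC class I, 10 rose and 4 fell of 17 tested (median 0.87). HLA-B had 13.2 and 11.8 CPM on drug and 74.8 and 68.4 CPM at 120 h (log2 fold change 2.53 ± 0.10), HLA-E 92.1 and 96.7 CPM on drug and 302 and 265 CPM at 120 h (log2 fold change 1.59 ± 0.08) and HLA-C 169.7 and 172 CPM on drug and 466 and 387 CPM at 120 h (log2 fold change 1.32 ± 0.07). Reads of these near-identical genes may be divided between them in a way the table does not show. B2M, the shared light chain, did not pass, at 394 and 393 CPM on drug and 399.5 and 391 CPM at 120 h (log2 fold change 0.00, adjusted p = 0.945), and the transporter gene TAP1 fell (log2 fold change -0.39). Of 12 tested surface ligands and genes of the CD73 axis, 10 rose and 1 fell (median 1.69). NT5E, which encodes CD73, the enzyme that makes extracellular adenosine, had 12.7 and 12.9 CPM on drug, 392 and 357 at 24 h, 1267 and 1202 at 72 h and 1786 and 1735 at 120 h (log2 fold change 7.11 ± 0.08 at 120 h, adjusted p = 2.67e-18). Its values increased from each time to the next without overlap. The complement inhibitor gene CD59 (214 and 217 CPM on drug and 1172 and 1106 CPM at 120 h, log2 fold change 2.40 ± 0.06) and the checkpoint ligand gene CD276 (45.5 and 47.2 CPM on drug and 253 and 245 CPM at 120 h, log2 fold change 2.42 ± 0.08) also rose, and CD274, which encodes PD-L1, did not pass (log2 fold change 0.10).

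**Figure D5:**
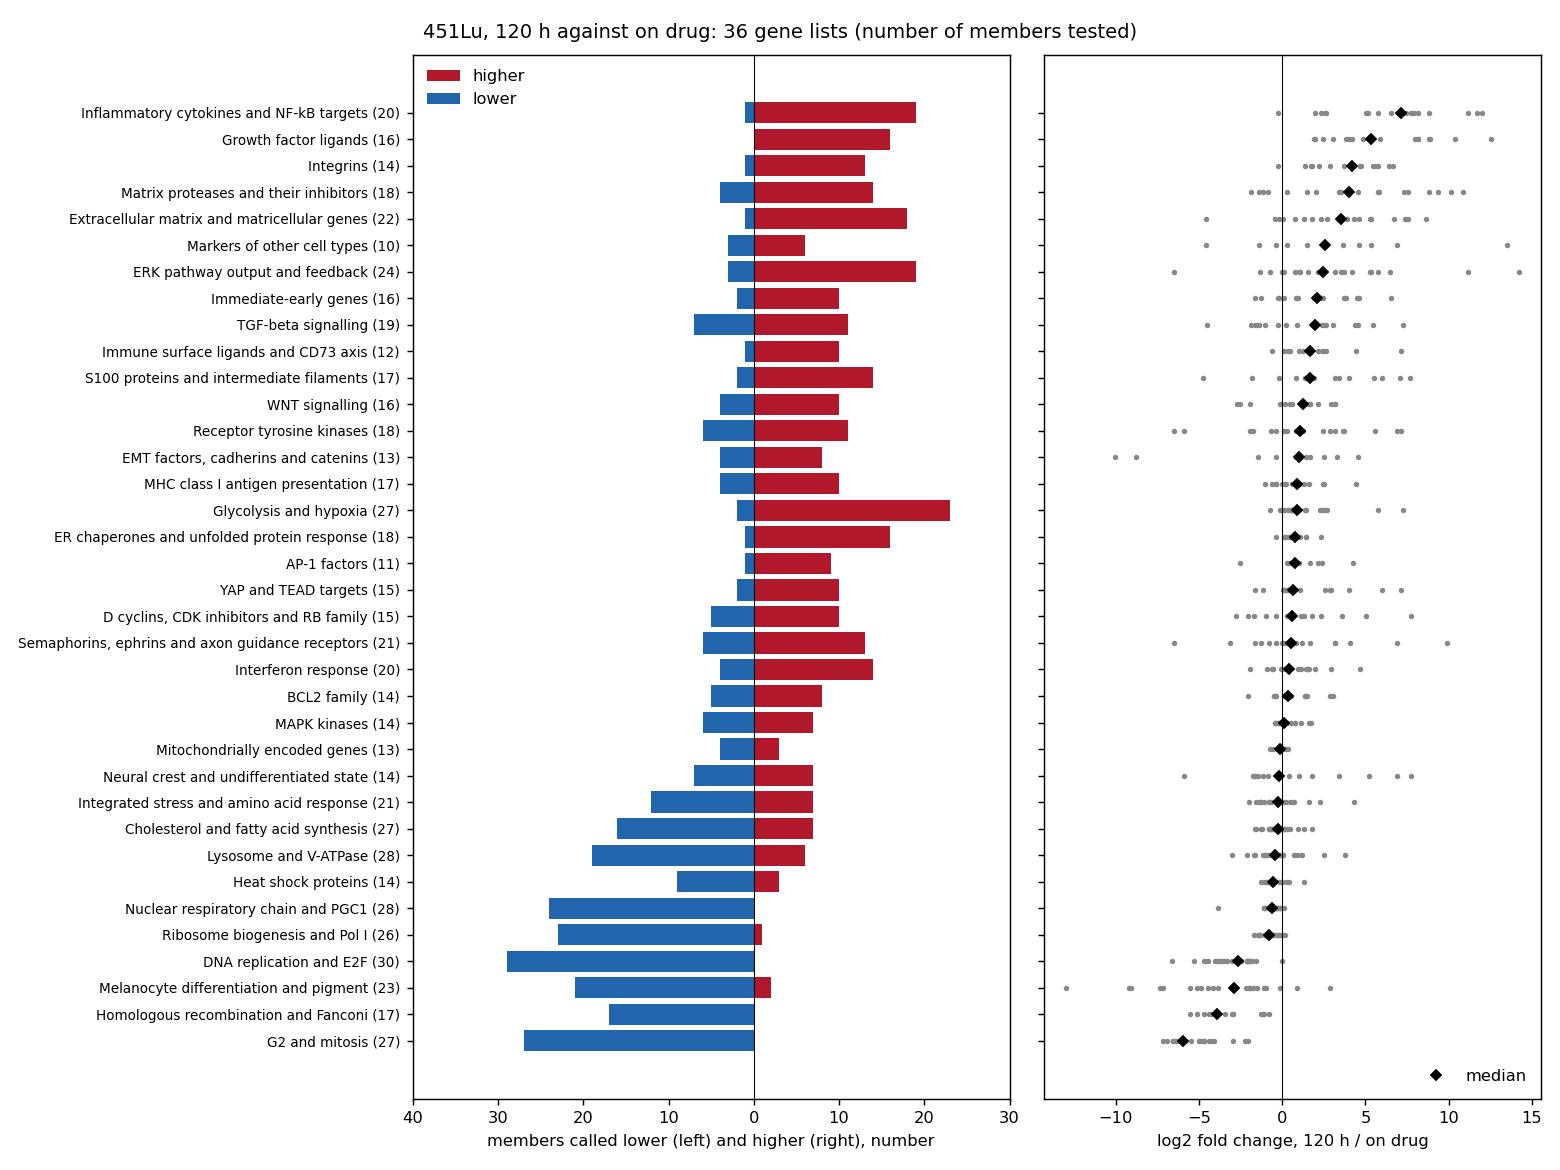
Left, number of members of each of 36 gene lists called higher (red, to the right) or lower (blue, to the left) at 120 h against on drug. Right, log2 fold change of each tested member (grey) and the list median (diamond). The lists run from inflammatory genes, with a median of 7.11, to G2 and mitosis, with a median of -5.93.

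Lists of metabolism and ribosome biogenesis had medians from -0.77 to 0.86. Of 27 tested genes of glycolysis and the hypoxia response, 23 rose and 2 fell (median 0.86). NDRG1 had 17.2 and 23.3 CPM on drug and 1072 and 1154 CPM at 120 h (log2 fold change 5.77 ± 0.12), the glucose transporter gene SLC2A1 40.7 and 42.6 CPM on drug and 266 and 265 CPM at 120 h (log2 fold change 2.67 ± 0.06) and BNIP3 48.3 and 54.05 CPM on drug and 252 and 244 CPM at 120 h (log2 fold change 2.27 ± 0.07). Of 28 tested nuclear genes of the respiratory chain and its regulators, 0 rose and 24 fell (median -0.61). PPARGC1A, the coactivator that drives mitochondrial biogenesis and a known target of MITF, had 36.7 and 32.8 CPM on drug and 2.17 and 2.65 CPM at 120 h (log2 fold change -3.85 ± 0.16). TFAM, a mitochondrial transcription factor, had 91.03 and 88.8 CPM on drug and 43.2 and 45.3 CPM at 120 h (log2 fold change -1.02 ± 0.07). The 13 genes encoded in mitochondria split into 3 higher and 4 lower (median -0.13). This split rested on single libraries, with 0 higher without 120 h replicate 2, 1 higher and 7 lower without on-drug replicate 2 and 2 lower without on-drug replicate 1. Of 26 tested genes of ribosome biogenesis, 1 rose and 23 fell (median -0.77), among them NCL, the nucleolin gene (1636 and 1611 CPM on drug and 629.7 and 642 CPM at 120 h, log2 fold change -1.35 ± 0.05), and NPM1 (1374 and 1359.7 CPM on drug and 508 and 507 CPM at 120 h, log2 fold change -1.43 ± 0.05). The 1 rise, of GNL3, was lost without on-drug replicate 2, 72 h replicate 2 or either 120 h library. Of 27 tested genes of cholesterol and fatty acid synthesis, 7 rose and 16 fell (median -0.28). SQLE had 76.9 and 81.6 CPM on drug and 259.7 and 282 CPM at 120 h (log2 fold change 1.77 ± 0.06), whereas SCD, the stearoyl-CoA desaturase gene, had 1562 and 1727 CPM on drug and 521 and 588 CPM at 120 h (log2 fold change -1.57 ± 0.08). Against 72 h, 0 rose and 18 fell of this list.

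In the integrated stress and amino acid response, 7 rose and 12 fell of 21 tested (median -0.27). PHGDH, the enzyme that commits glucose carbon to serine, had 512 and 531 CPM on drug and 208 and 208 CPM at 120 h (log2 fold change -1.32 ± 0.05), and the amino acid transporter gene SLC7A5 462 and 512 CPM on drug and 173 and 154 CPM at 120 h (log2 fold change -1.57 ± 0.07). Of 18 tested chaperones of the endoplasmic reticulum, 16 rose and 1 fell (median 0.75), with DNAJB9 at 29.1 and 27.4 CPM on drug and 157 and 123 CPM at 120 h (log2 fold change 2.32 ± 0.11). Of 14 tested heat shock genes, 3 rose and 9 fell (median -0.53), with the mitochondrial chaperonin gene HSPD1 at 1118 and 1078 CPM on drug and 438 and 476 CPM at 120 h (log2 fold change -1.26 ± 0.06). Of 28 tested lysosome and proton pump genes, 6 rose and 19 fell (median -0.45). The cathepsin genes divided, with CTSL at 58.1 and 57.8 CPM on drug and 816 and 749 CPM at 120 h (log2 fold change 3.75 ± 0.10) and CTSB at 376 and 389 CPM on drug and 2283 and 1988 CPM at 120 h (log2 fold change 2.48 ± 0.08) higher and CTSK at 492 and 499 CPM on drug and 110.4 and 120.1 CPM at 120 h (log2 fold change -2.11 ± 0.06) lower. ASAH1, the acid ceramidase gene, fell furthest of this list (669 and 639 CPM on drug and 81.2 and 83.3 CPM at 120 h, log2 fold change -2.99 ± 0.07). Of 17 tested S100 and filament genes, 14 rose and 2 fell (median 1.66). S100A6 had 11.1 and 12.9 CPM on drug and 1486 and 1703 CPM at 120 h (log2 fold change 7.04 ± 0.11), and the nuclear lamina gene LMNB1 fell (139 and 146 CPM on drug and 4.899 and 5.75 CPM at 120 h, log2 fold change -4.75 ± 0.12). In the endoplasmic reticulum and glycolysis lists, falls rested on single libraries. The 1 endoplasmic reticulum gene that fell was lost without on-drug replicate 2 or 120 h replicate 2, and 1 of the 2 glycolysis genes that fell without on-drug replicate 2. Of 21 tested semaphorin, ephrin and guidance receptor genes, 13 rose and 6 fell (median 0.53). SEMA3A had 56.9 and 47.6 CPM on drug and 414 and 509.9 CPM at 120 h (log2 fold change 3.15 ± 0.10) and SEMA6A 324 and 358 CPM on drug and 34.05 and 43.7 CPM at 120 h (log2 fold change -3.14 ± 0.11). NRP1, a receptor of SEMA3A and VEGFA, had 1 count on drug and 47.1 and 26.4 CPM at 120 h, a ratio of 1256 (95% counting interval 225 to 49670). With on-drug replicate 1 left out, its fitted log2 fold change was 9.14, and with on-drug replicate 2 left out 11.81.

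Markers of other cell types were checked because PECAM1, PDGFRB and some collagen genes rose. Of 21 listed markers 10 could be tested, 6 rose and 3 fell (median 2.56). Leukocyte markers summed to 0.129 and 0.332 CPM on drug and 0.723 and 0.547 CPM at 120 h. Of the endothelial markers other than PECAM1, KDR rose, from 2 counts on drug (0.129 and 0 CPM) to 0.803 and 0.912 CPM at 120 h, a ratio of 14.3 (95% counting interval 3.48 to 127). Leaving out on-drug replicate 1 gave a fitted log2 fold change of 6.44, and leaving out on-drug replicate 2 gave 2.63. VWF was called lower (0.775 and 1.05 CPM on drug and 0.321 and 0.365 CPM at 120 h), a call not made by DESeq2 (adjusted p = 0.206) or, with edgeR, without on-drug replicate 2 (adjusted p = 0.127), 120 h replicate 1 (0.103) or 120 h replicate 2 (0.0601). Fibroblast markers summed to 146 and 132 CPM on drug, most of it LUM, and 57.98 and 49.997 CPM at 120 h, with COL3A1 at 0 counts in both states. Other fibroblast markers were higher at 120 h, COL1A1 at 0.129 and 0.442 CPM on drug and 9.32 and 5.47 CPM at 120 h (log2 fold change 5.74 without on-drug replicate 2, or 4.61 with it) and DCN at 0.0646 and 0.111 CPM on drug and 5.06 and 2.83 CPM at 120 h, beside PDGFRB given above. The number of marker genes that fell was 1 without 120 h replicate 2. Keratinocyte markers summed to 13.8 and 13.2 and 11.001 and 10.1 CPM and neuron markers to 15.5 and 14.7 and 18.95 and 17.7 CPM. CD3E, CDH5, KRT5 and KRT14 were not analysed here.

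The times off drug differed from each other as well as from the on-drug cells. Against on drug, 4044 genes were called higher at 24 h (29.2%) and 3447 lower (24.9%). Against 24 h, 8814 genes were called at 120 h (63.6%), 4503 higher (32.5%) and 4311 lower (31.1%). Of genes called against 72 h with at least 10 CPM at 120 h, the 8 with the largest rises follow. C3, the central complement component, had 29.8 and 15.7 CPM at 72 h and 356 and 201 CPM at 120 h (log2 fold change against 72 h 3.64, adjusted p = 2.24e-08). FAM20C, a kinase of secreted proteins, had 1.93 and 1.14 CPM at 72 h and 18.6 and 11.2 CPM at 120 h (3.30). The TNF family ligand gene TNFSF15 had 2.69 and 0.474 CPM at 72 h and 22.2 and 6.84 CPM at 120 h (3.27), and MMP10, the stromelysin 2 gene, 3.76 and 1.896 CPM at 72 h and 34.05 and 17.2 CPM at 120 h (3.21). The TNFSF15 call was not made by DESeq2 (adjusted p = 0.215), and its log2 fold change was 4.93 without 72 h replicate 1, 2.44 without 72 h replicate 2 and 2.15 without 120 h replicate 1. Without 120 h replicate 1 that of MMP10 was 2.62. TFPI2 (3.24), FGF2 (3.21), OSBP2 (2.91) and IL1B (2.84) complete the set. Without 72 h replicate 1 the value of TFPI2 was 3.91 and that of IL1B 3.73, and without 120 h replicate 1 that of TFPI2 was 2.65. In all 8 genes both 120 h values lay above both 72 h values, which their choice as the largest called rises largely fixed. Replicate 1 was the higher library at both times in all 8. Leaving out 72 h replicate 2 took the number of calls against 72 h from 4531 to 2851, and this library is named because no other one moved the count by over 1.5 times.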

How the data were processed

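RNA sequencing libraries of 451Lu cells were compared from the authors' deposited table of raw read counts per gene. Per the submitters' processing notes, reads were aligned with TopHat2 2.1.0 and Bowtie 1.0.0 to GRCh38. No source used here gives the counter, annotation release or strand setting. The deposited table holds 30813 genes, and all its columns of counts were matched to labelled samples.

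The 8 libraries of the line, in 4 groups of 2 taken from the labels, were fitted together with edgeR 4.0.16 in R 4.3.3 (TMM scaling, filterByExpr with a minimum count of 10 and a minimum total of 15, quasi-likelihood F test, 4 residual degrees of freedom before moderation). The Benjamini-Hochberg adjustment ran over the 13851 genes tested, with a threshold of 0.05 for the adjusted p. Log2 fold changes are fitted values ± SE, the SE being the absolute log2 fold change over the square root of F. Fold values against 0 counts are bounds against 3 counts over the group's 2 libraries, and ratios with 1 to 3 counts carry a 95% exact Clopper-Pearson interval. Both cover counting error only. TMM assumes that most genes are unchanged or that changes balance, and 73.8% of genes were called.

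The script was tested on simulated counts with known changes. The members, the 37 lists (782 entries, 777 matched by symbol, 662 distinct genes tested) and the rules were chosen with earlier results of these data known. The named genes were the 12 largest rises and falls with at least 10 CPM in the higher group, the 4 members of each list with the smallest adjusted p plus fixed defining genes, the 8 genes each way that turned between 24 h and 120 h, and the 8 largest changes each way against 72 h. Accession-only gene models (1 among rises, 2 among falls) were skipped. Further list members, mainly those that ran against their list, were named after their values were seen. Of the lists, 36 are described, and 1 list and some single genes are not reported here. Alternatives were RLE and upper-quartile scaling, no or a stricter low-count filter, DESeq2 1.42.0, a test against 1.5-fold, a replicate block, the 4 compared libraries alone, leaving out each library, and scaling without FN1 and mitochondrial genes (added after the data were seen). Promoter sequences are from RefSeq, GRCh38.p14.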

Additional observations from a re-analysis of the deposited data

Results flagged for a closer look

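The genes here moved 1 way against the on-drug libraries at 24 h and the other way at 120 h, with all 3 tests passed (24 h, 120 h, and 120 h against 24 h, which uses no on-drug library). Of 13851 genes tested, 307 were lower at 24 h and higher at 120 h, and 486 were higher at 24 h and lower at 120 h. The 8 with the largest difference each way are given by their log2 fold change at 120 h against 24 h. Of those that were low at 24 h, GPR158 changed by 4.38, JPH1 by 4.24, SLC22A17 by 3.89, LAMA4 by 3.85, GRIK2 by 3.52, CERCAM by 3.34, LTBP3 by 3.14 and YPEL2 by 3.08. LAMA4, a laminin subunit gene, had 30.2 and 28.8 CPM on drug, 9.83 and 10.7 at 24 h, 38.8 and 38.2 at 72 h and 150.5 and 146 at 120 h, and LTBP3, which binds latent TGF-beta, had 27.7 and 27.3 CPM on drug, 21.96 and 18.6 at 24 h, 82.6 and 67.6 at 72 h and 196 and 162 at 120 h. Both genes were lowest at 24 h and highest at 120 h, without overlap between groups. Their low 24 h and high 120 h values follow from the rule that chose them. Of those that were high at 24 h, KIF2C changed by -6.70, CASC5 by -6.67, ANLN by -6.49, NUF2 by -6.30, SKA1 by -6.20, SHCBP1 by -5.87, HJURP by -5.70 and KIF14 by -5.38. Their rises at 24 h against on drug were small, with log2 fold changes from 0.22 (CASC5) to 0.67 (HJURP). At 120 h against on drug they ran from -6.45 (CASC5) to -5.00 (KIF14), so most of each difference was the later fall. KIF2C, a kinesin that depolymerises microtubules at the centromere, had 161 and 156 CPM on drug, 204 and 224 at 24 h, 30.1 and 39.999 at 72 h and 1.93 and 2.19 at 120 h. HJURP, which loads the centromeric histone, had 88.97 and 87.3 CPM on drug, 131 and 151 at 24 h, 16.8 and 23.1 at 72 h and 2.49 and 2.92 at 120 h. In both, all 24 h values lay above those on drug and the 120 h values were the lowest of the 8 libraries, an order that the same rule largely fixed.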

How the results depend on the processing

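The count of calls at 120 h against on drug was 10224. It ran from 9369 to 10498 when each library was left out and fell to 5688 when tested against a 1.5-fold change, while the other settings stayed within 1.5 times of it. Against 72 h the count of 4531 was 2982 with DESeq2, 550 against a 1.5-fold change and 2851 to 4510 with a library left out, lowest without 72 h replicate 2. Against 24 h the count of 8814 was 3562 against a 1.5-fold change and 7814 to 8969 with a library left out. Same-numbered libraries on drug and at 120 h did not deviate together (correlation 0.00977 over 13851 genes), whereas those at 24 h, 72 h and 120 h did so weakly (0.133 to 0.137). The sample titles carry the letters B and C at every time, and the replicate numbers follow these letters. The letters may mark paired series, but no label says that a letter marks a shared culture or day. With 2 libraries in each group, the counts above have no block. With a replicate block the 3 counts were 10435, 5041 and 9069.

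Values near 0 that did not pass changed sign. B2M was -0.0104 with upper-quartile scaling, -0.0443 without a filter and -0.0589 to 0.0012 with a library left out. CCNE1 was 0.028 and PMEL against 72 h 0.0013 at 5 CPM or more in 2 libraries, and EPHA4 was -0.0321 without a filter. With a library left out, PMEL against 72 h ran from -0.198 to 0.197, EPHA4 from -0.105 to 0.0713, CD274 from -0.0017 to 0.217 and ETV4 from -0.0935 to 0.182. Of 1258 counts of list members, 56 moved by over 1.5 times, 27 of them outside the 1.5-fold test and most of those in counts of 1 to 4 genes. The cause was not tested, except that the stricter filters test fewer genes. Genes with few counts in 1 state are limited by depth, which the bounds and counting intervals show.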

Other observations

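Among classes of genes that do not encode proteins, lincRNA and antisense genes were more often higher than lower at 120 h against on drug by count, and processed pseudogenes more often lower. Of 572 lincRNA genes tested, 206 were higher and 140 lower (median log2 fold change 0.14), and of 586 antisense genes 190 were higher and 134 lower (median 0.17). Of 103 processed pseudogenes 15 were higher and 23 lower (median -0.29). Of 11997 protein-coding genes, 4567 were higher and 4635 lower (median -0.01). Over all genes tested, 37.3% were higher and 36.6% lower. The lincRNA, antisense and processed pseudogene classes each had smaller shares than these in both directions, so none of them was called higher more often than genes at large. The difference between these classes was not tested, and antisense counts may include reads of the genes on the other strand.

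The 2 libraries of the 72 h group, and less so those of the 24 h group, differed in division genes. Of 21 members of the mitosis list at 10 CPM or more, 0 were higher in replicate 1 at 72 h (median ratio of replicate 1 to replicate 2 0.796), and of 26 members of the replication list 2 were (median ratio 0.914). Over all 9002 genes at that level at 72 h, 4639 were higher in replicate 1. At 24 h 1 of 27 mitosis genes (median ratio 0.914) and 15 of 30 replication genes (median ratio 1.00) were higher in replicate 1, beside 4472 of all 8935. On drug 17 of 27 and 15 of 30 were higher in replicate 1, beside 4375 of all 8960. Endoplasmic reticulum chaperone genes stood slightly higher in replicate 1 at 120 h, in 17 of 18 genes with a median ratio of 1.07. At 72 h 17 of 18 did so too (median ratio 1.05), at 24 h 12 of 18 and on drug 9 of 18. Over all 8921 genes at that level at 120 h, 4452 were higher in replicate 1.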
